A study of Mus musculus with 6 samples.

Results

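Expression of the Notch pathway was measured in the E15.5 mouse brain through 10 genes, which were chosen by name for their place in the pathway: the receptors Notch1, Notch2 and Notch3, the ligands Dll1, Dll3 and Jag1, the DNA-binding factor Rbpj, and the target genes Hes1, Hes5 and Hey1. They account for 10 of the 20937 genes with a symbol and for 11 of the 23485 RefSeq transcript IDs in the count tables, and 10 of these 11 IDs had enough reads to be tested. RNA-seq was performed on whole brains of wild-type C57BL/6 embryos, with 3 female and 3 male samples, no treatment and no other genotype. Each sample was total RNA pooled from several embryos, which were sexed by the presence of testicular cords in the gonads, so a value is an average over a pool and p-values measure the spread between pools. Samples are named here by sex and number, for example female 1. Hes5 was also picked out by the study, from these same samples, as a gene that differed between the sexes, so its direction here is not independent evidence.

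Notch signalling is a form of contact between neighbouring cells, in which a Delta or Jagged ligand on one cell binds a Notch receptor on the next. Binding leads to successive cuts of the receptor, the last by gamma-secretase, and the freed intracellular part enters the nucleus, where it joins Rbpj on DNA and turns on genes of the Hes and Hey families. In the embryonic brain these repressors keep radial glia, the neural stem cells that line the ventricles, from becoming neurons, while cells that express proneural factors and Delta ligands go on to differentiate.

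Totals ranged from 4908565 to 10294443 counts per sample, and the limit for an ID listed at 0, set at 3 counts, lay between 0.291 and 0.611 when divided by the unscaled totals. Levels are given as CPM, counts scaled by library totals that were first multiplied by a TMM factor. Males 1 and 2 stood apart by their IDs without a count, 6743 and 6280 against 4120 to 5183 in the other samples. Male 1 also had the highest total and differed most from the other males. Its chi-square per degree of freedom, a measure of difference beyond counting noise, was 34.4 against male 2 and 44.9 against male 3. That value was 12 between males 2 and 3 and 9.03 to 13.8 among females. Hes5, Hes1 and Hey1 were highest in males 1 and 2, with male 3 next to female 3, and the part of the libraries in the differences was not tested. The sex labels were matched by Xist, with 6153 to 10001 counts in females and 4 to 7 in males, and by the Y-linked Ddx3y, with 0 to 1 and 1308 to 1970 counts. Neural markers were present, with the neuronal tubulin Tubb3 at 1230 to 1970 CPM and Sox2, a transcription factor of neural stem cells, at 73.1 to 122 CPM across the samples.

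Hes5 encodes a basic helix-loop-helix repressor that radial glia make in response to Notch. The gene lies on the plus strand of NCBIM37 (mm9) at chr4:154335032-154336480, with 3 exons and an annotated transcript of 1273 nt. The 250 bases before its start are shown because they hold 2 copies of GTGGGAA, the core letters bound by Rbpj, through which Notch acts on this gene. Capitals mark the matches, in the first case as the reverse complement TTCCCAC, and the region is chr4:154334782-154335031 on the plus strand, written 5′ to 3′.
Hes5 promoter: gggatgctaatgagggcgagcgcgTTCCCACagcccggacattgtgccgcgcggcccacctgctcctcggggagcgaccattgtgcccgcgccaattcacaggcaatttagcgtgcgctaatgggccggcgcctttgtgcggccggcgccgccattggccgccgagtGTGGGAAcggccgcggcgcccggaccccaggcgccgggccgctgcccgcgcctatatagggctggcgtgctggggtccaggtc
The matches lie 226 to 220 and 83 to 77 bases before the start, on opposite strands. Searched on both strands in the same window of the 32851 promoters of the RefSeq table (GRCm38.p6), these 7 letters occurred at least once in 1779 (5.42%) and 2 or more times in 53 (0.161%). The windows of Notch1, Notch2, Notch3, Dll1, Dll3, Jag1 and Rbpj held no match, which says only that these letters are not in that window. Promoters of Hes1 and Hey1 had no entry in the table used.

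Transcripts of Hes5 (NM_010419) were more abundant in every male sample than in any female sample, but the difference did not pass the test across all transcripts. In females 1, 2 and 3 it had 71, 68 and 167 counts, or 11.5, 13.6 and 17.1 CPM. In males 1, 2 and 3 it had 234, 181 and 208 counts, or 24.2, 27.7 and 20.8 CPM. The sexes did not overlap, and the nearest samples were female 3 and male 3. Females averaged 14.05 CPM ± 2.803 and males 24.23 CPM ± 3.429 (SD, n = 3 each), a 1.71-fold difference with a log2 fold change of 0.77 (SE 0.21, 95% interval 0.32 to 1.22). Positive values are higher in males throughout. In edgeR's quasi-likelihood test the unadjusted p was 0.00255 and the Benjamini-Hochberg adjusted p 0.338 over 13374 IDs. In bulk brain, a larger number of Hes5-expressing cells and more Hes5 RNA per cell cannot be told apart.

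The call on Hes5 changed with the processing while its direction did not. The log2 fold change stayed positive, from 0.50 to 0.96, under the alternatives run. Hes5 was past the threshold without a low-count filter (0.79, adjusted p 0.0454), with DESeq2 and 1 RUVr factor of unwanted variation (0.77, adjusted p 0.0485) and with DESeq2 without female 3 (0.94, adjusted p 0.0317). The same settings called 1.18%, 3.78% and 5.99% of the IDs they adjusted, against 0.0299% (4 IDs) in the edgeR test. Of the libraries that stood apart, its log2 fold change was 0.77 (adjusted p 0.252) without male 1 and 0.68 (adjusted p 0.518) without male 2.

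Hes1, the other Hes repressor of radial glia, was also higher in all males than in all females. It is encoded at chr16:30064470-30067882 (plus strand, 4 exons, 1468 nt; NM_008235). Its level was 59.6, 63.1 and 74.4 CPM in females 1, 2 and 3 and 94.8, 83.0 and 77.9 CPM in males 1, 2 and 3. The ranges did not overlap, although only a small gap separated female 3 from male 3. The means of 65.73 ± 7.744 and 85.22 ± 8.683 CPM (SD, n = 3) gave a 1.29-fold difference, and the log2 fold change of 0.37 (SE 0.14, 95% interval 0.07 to 0.68) did not pass edgeR's test (unadjusted p 0.0208, adjusted p 0.378). Without male 1 it was 0.29, with an unadjusted p of 0.0781, and without male 2 it was 0.40, with an unadjusted p of 0.0317.

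Hey1, a hairy-related repressor of the same class at chr3:8663362-8667039 (minus strand, 5 exons, 2203 nt; NM_010423), differed by a similar amount. It was at 42.1, 39.4 and 48.3 CPM in females 1, 2 and 3 and at 55.9, 60.1 and 47.7 CPM in males 1, 2 and 3. Here the sexes overlapped, since male 3 lay just under female 3. The log2 fold change was 0.33 (SE 0.15, 95% interval 0.00 to 0.66), with an edgeR unadjusted p of 0.0489 and an adjusted p of 0.433. Without male 1 it was 0.31, with an unadjusted p of 0.0879, and without male 2 it was 0.26, with an unadjusted p of 0.152. The unadjusted p of Hey1 was also above 0.05 with RLE factors (0.0539), upper-quartile factors (0.0772) and DESeq2 (0.0715).

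**Figure D1:**
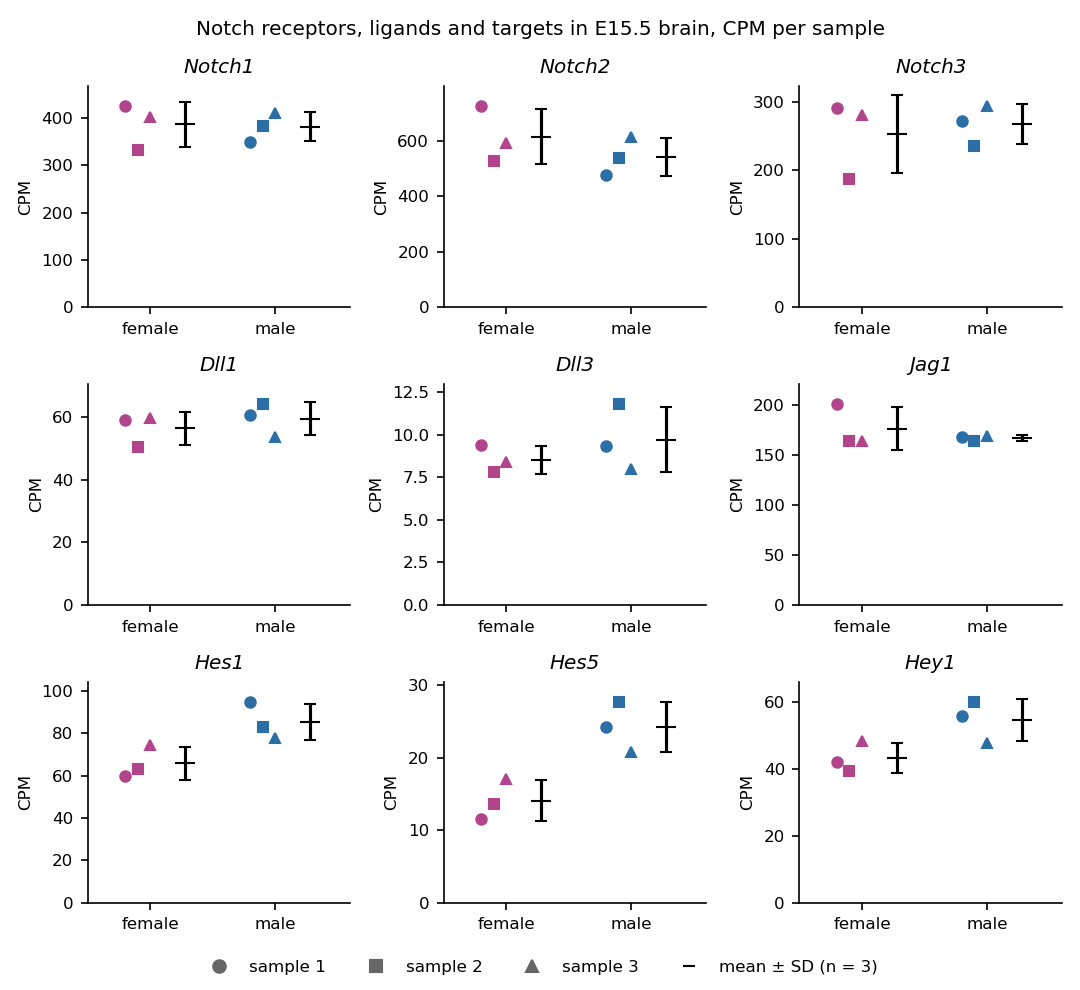
Normalised level (y axis, CPM with TMM-scaled totals, each axis from 0) of 9 Notch pathway genes in 3 female and 3 male samples (x axis), with 1 point per pooled sample and the mean ± SD beside it. Hes5 and Hes1 are higher in each male than in each female, Hey1 overlaps only through male 3 and female 3, and the receptors and ligands overlap widely.

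The receptors, by contrast, had no sample range that separated the sexes. Notch1 (NM_008714; chr2:26313423-26372183, minus strand, 34 exons, 9488 nt), the receptor best known from radial glia, was at 425, 333 and 402 CPM in females 1, 2 and 3 and 350, 383 and 411 CPM in males 1, 2 and 3. Every male value lay within the female range. Its log2 fold change was -0.02 (SE 0.13, 95% interval -0.30 to 0.26; edgeR adjusted p 0.965), so the interval excluded a difference the size of the fitted change of Hes5. Notch2 (NM_010928; chr3:97817461-97954290, plus strand, 34 exons, 10506 nt), a second receptor of progenitors, was at 724, 528 and 591 CPM in females 1, 2 and 3 and 475, 536 and 613 CPM in males 1, 2 and 3. The highest sample was female 1 and the lowest male 1, with the others between them. Its log2 fold change was -0.18 (SE 0.14, 95% interval -0.49 to 0.13; edgeR adjusted p 0.634).

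Notch3 (NM_008716; chr17:32257765-32303825, minus strand, 33 exons, 8044 nt), which is also the receptor of mural cells of blood vessels, was at 291, 188 and 281 CPM in females 1, 2 and 3 and 272, 236 and 294 CPM in males 1, 2 and 3. Female 2 was the low sample, and the remaining females lay among the males. Its log2 fold change was 0.08 (SE 0.16, 95% interval -0.27 to 0.43; edgeR adjusted p 0.881), and it took the opposite sign without female 2 (-0.10).

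Ligand levels also overlapped between the sexes. Dll1 (NM_007865; chr17:15504318-15513836, minus strand, 11 exons, 3581 nt), the Delta ligand of cells that are about to become neurons, was at 59.1, 50.3 and 59.8 CPM in females 1, 2 and 3 and 60.7, 64.2 and 53.7 CPM in males 1, 2 and 3. Its log2 fold change was 0.07 (SE 0.14, 95% interval -0.23 to 0.38; edgeR adjusted p 0.87). Jag1 (NM_013822; chr2:136907192-136942380, minus strand, 26 exons, 5612 nt), a Jagged ligand, was at 201, 164 and 164 CPM in females 1, 2 and 3 and 168, 164 and 169 CPM in males 1, 2 and 3. Female 1 was high and the other samples were nearly level, giving a log2 fold change of -0.08 (SE 0.12, 95% interval -0.34 to 0.19; edgeR adjusted p 0.838). Dll3 (NM_007866; chr7:29076673-29087257, minus strand, 9 exons, 2618 nt), a divergent Delta that acts inside the cell and dampens signalling, was the lowest ligand, with 58, 39 and 82 counts in females 1, 2 and 3 and 90, 77 and 80 in males 1, 2 and 3. Its log2 fold change of 0.18 had the widest interval of the receptors and ligands (SE 0.25, 95% interval -0.36 to 0.72; edgeR adjusted p 0.815), so a change of the size fitted for Hes1 was not detectable at this depth.

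Rbpj, which binds DNA for all Notch receptors, could not be read as a gene. Of its 5 curated RefSeq IDs, 2 were in the tables. NM_001277116 had 6, 6 and 3 counts in females 1, 2 and 3 and 0, 1 and 11 in males 1, 2 and 3. NM_001080928 had a single count, in female 2, and was not tested. The tested ID had a log2 fold change of -0.83 with an SE of 1.14 (edgeR adjusted p 0.81), and the summed counts of these IDs are not the level of the gene. The gene lies at chr5:53947018-54048684 on the plus strand. Hes5 and Dll1 were each represented by 1 of 2 curated IDs, and the other 7 members by their only one.

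Over all members, 0 of the 10 tested IDs were called at an adjusted p under 0.05 in edgeR, where 0.0299% of all tested IDs were called. At an unadjusted p under 0.05 there were 3, all higher in males and all target genes, where 6.68% of all tested IDs were past that line in the male direction and 4.82% in the female direction. The sexes did not overlap for 2 members, both higher in males, against 8.7% of all tested IDs in that direction and 8.35% in the other. DESeq2 called 0 of the members to which it gave an adjusted p, and 1.55% of all such IDs. It gave none to Hes5 (DESeq2 unadjusted p 0.00204), Dll3 and Rbpj, so these could not be called. The median log2 fold change was 0.37 over the 3 targets, -0.02 over the 3 receptors and 0.07 over the 3 ligands, beside -0.01 over all tested IDs. With any 1 sample left out these medians ran from 0.31 to 0.48 for the targets, from -0.12 to 0.05 for the receptors and from -0.00 to 0.15 for the ligands.

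**Figure D2:**
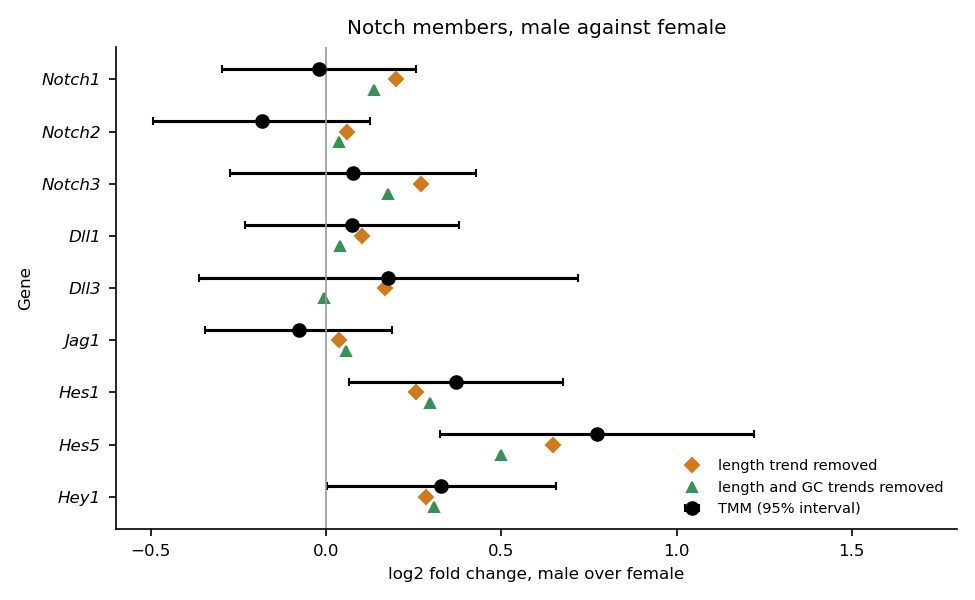
Log2 fold change, male over female (x axis), of 9 members (y axis): black circles with bars are the edgeR estimate after TMM scaling and its 95% interval, and diamonds and triangles are the estimate once a trend with length, or with length and GC content, had been taken out. The 3 targets lie right of 0 under each setting, and the values of Notch1, Notch2 and Jag1, and of Dll3 with length and GC content, cross 0 once trends are taken out.

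Targets and receptors are read from the same libraries, so their ratio within a sample needs no scaling between libraries. For each 100 counts of Notch1, Notch2 and Notch3 together, Hes5 had 0.799, 1.3 and 1.34 counts in females 1, 2 and 3 and 2.21, 2.4 and 1.58 in males 1, 2 and 3. Each male was above each female, and the means of 1.14 ± 0.3 and 2.06 ± 0.428 (SD, n = 3) stood in a ratio of 1.8. Hes1 gave 4.14, 6.02 and 5.84 in females and 8.64, 7.19 and 5.9 in males 1, 2 and 3, with a ratio of means of 1.36. There male 3 lay below female 2, so the sexes overlapped. Hey1 gave 2.93, 3.75 and 3.79 in females and 5.1, 5.2 and 3.62 in males 1, 2 and 3, again with male 3 among the females. For the ligands these ratios of means were 0.997 for Jag1, 1.12 for Dll1 and 1.21 for Dll3, with overlap in each.

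Members also differ in transcript length, and fold changes in these libraries moved with length. Over 12750 tested IDs with a length, the median log2 fold change stepped down over 5 length quintiles, from 0.15 in the shortest (39 to 1592 nt), through 0.08, 0.01 and -0.04, to -0.15 in the longest (4809 nt and over). Hes5 and Hes1 belong to the shortest quintile and Hey1 to the next, whereas Notch1, Notch2, Notch3 and Jag1 belong to the longest. Once a trend with length had been taken out of each sample, the log2 fold change of Hes5 was 0.65 (unadjusted p 0.00622, adjusted p 0.483), and with GC content taken out as well it was 0.50 (unadjusted p 0.0246, adjusted p 0.536). Hes1 then had 0.26 and 0.30 and Hey1 0.29 and 0.31, none of them with an unadjusted p under 0.05. The receptors moved upwards, to 0.20 and 0.14 for Notch1, 0.06 and 0.04 for Notch2 and 0.27 and 0.18 for Notch3, so the gap between targets and receptors was smaller on these scales.

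**Figure D3:**
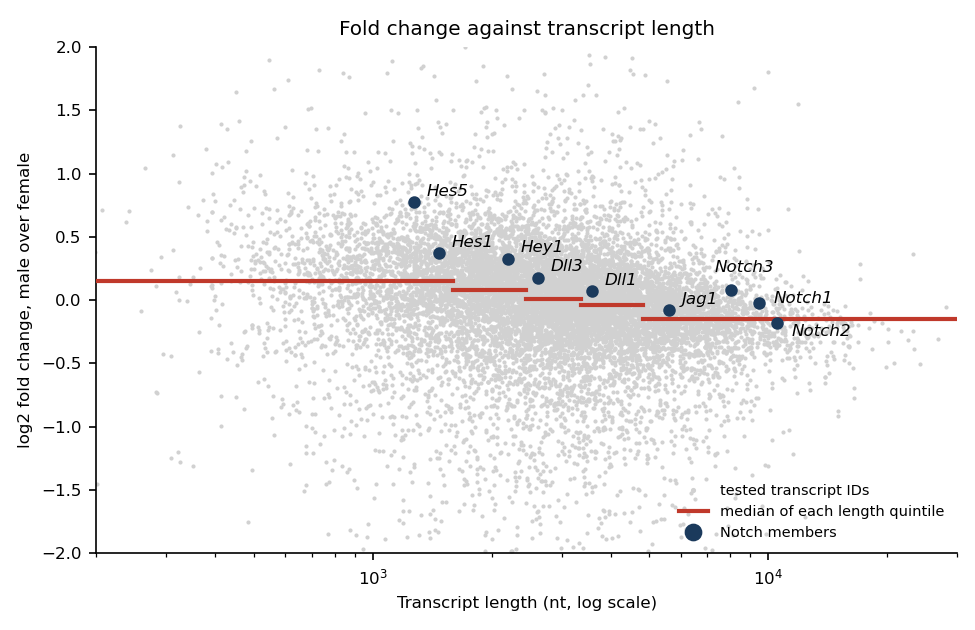
Log2 fold change, male over female (y axis), against annotated transcript length in nt (x axis, log scale) for tested IDs (grey points), with the median of each length quintile as a red line and 9 members as dark points. The quintiles step from 0.15 to -0.15, and Hes5 lies above the line of its quintile; of the 12750 IDs, 123 beyond 2 in size and 132 outside the drawn lengths are not shown.

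Levels were compared between genes as CPM per kilobase of annotated transcript, over the 6 samples together. Notch2 was highest at 55.0 ± 8.25 (SD, n = 6), followed by Hes1 at 51.4 ± 8.83 and Notch1 at 40.5 ± 3.82. Notch3 was at 32.4 ± 5.14 and Jag1 at 30.6 ± 2.57. Below these came Hey1 at 22.2 ± 3.59, Dll1 at 16.2 ± 1.41, Hes5 at 15.0 ± 4.9 and Dll3 at 3.48 ± 0.559. Among neighbours in this order, the values kept apart only between Jag1 and Hey1 and between Hes5 and Dll3, and all other neighbours overlapped. Within samples, however, Notch1 was above Notch3 and Hey1 above Dll1 in 6 of 6 samples. Notch2 was above Hes1 in each female and below it in males 1 and 2. On this scale the order of Hes5 and Dll1 differed between the sexes. Hes5 was below Dll1 in each female, at 9.04, 10.7 and 13.4 against 16.5, 14.1 and 16.7, and above it in each male, at 19.0, 21.7 and 16.4 against 17.0, 17.9 and 15.0 (samples 1, 2 and 3). Where these values cross depends on the annotated lengths, and male 3 was close. Counts of both genes are also uncertain, since each overlaps a gene on the other strand.

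The IDs whose pattern over the 6 samples was most like that of Hes5 were found by the root mean square difference of log2 CPM centred on each ID's mean, among the 8357 IDs averaging 50 counts or more. The nearest were Cby1 (0.08), Nop10 (0.089), Ms4a6b (0.096), H3c2 (0.108) and Pdxp (0.11), against a spread of Hes5 itself of 0.48 (SD of log2 CPM). Each had its 3 highest samples among the males, except H3c2, where female 3 (161 CPM) lay above male 3 (159 CPM). This order follows from the choice of IDs by their likeness to Hes5. Of the other members, Hes1 ranked 365 (0.246) and Hey1 448 (0.256), the ligands between 2364 (Dll3) and 5433 (Jag1), and the receptors between 4685 (Notch3) and 6659 (Notch2). With 6 samples of 2 sexes, this likeness is a description of shared order and not of shared control.

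The rest of the pathway was read from lists of 65 genes, of which 57 were in the tables and 45 (48 IDs) were tested. None of the 48 IDs was called in edgeR, while at an unadjusted p under 0.05 there were 5 in the male and 4 in the female direction, together 18.8% against 11.5% of all tested IDs. Sample ranges of the sexes were separate for 10 IDs (20.8%, against 17.1% of all).

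Genes that handle ligands and receptors leaned to higher male values, with 13 of 17 IDs positive and a median log2 fold change of 0.21, which was 0.06 without female 2. That median is the value of Poglut1, which had only 5 to 25 counts per sample (SE 0.62). Fbxw7 (with more than 1 ID), Itch and Neurl1a among the positive IDs and Mib2 among the negative also had few counts. Mfng, a Fringe enzyme that adds sugars to Notch and alters its choice of ligand, was at 25.1, 21.2 and 33.0 CPM in females 1, 2 and 3 and 39.6, 41.6 and 36.3 CPM in males 1, 2 and 3. It was higher in each male than in each female, with a log2 fold change of 0.56 (SE 0.18; edgeR unadjusted p 0.00942, adjusted p 0.341). Dtx1, a Deltex protein that binds the intracellular part of Notch, had 0.31 (SE 0.14; edgeR adjusted p 0.424) and likewise no overlap. With the length trend taken out Mfng had 0.48 and Dtx1 0.36, and with length and GC trends taken out 0.37 and 0.19. Adam10, the protease that makes the outer cut of Notch, was the most abundant of the list at 391, 441 and 351 CPM in females 1, 2 and 3 and 404, 218 and 294 CPM in males 1, 2 and 3, with male 1 within the female range (log2 fold change -0.37, edgeR adjusted p 0.46; -0.62 without male 1). Among other ligands and receptors, 4 of 5 IDs were positive with a median of 0.20, which ran from 0.02 without female 2 and 0.09 without male 1 to 0.36 without male 2. The neuronal ligand Dner was the most abundant of them, at 196, 221 and 226 CPM in females 1, 2 and 3 and 318, 228 and 227 CPM in males 1, 2 and 3. All males were above all females, though males 2 and 3 only just (log2 fold change 0.27, edgeR adjusted p 0.491; 0.09 without male 1). In gamma-secretase, which makes the final cut, the median over 5 IDs was 0.15, and Ncstn, its substrate-binding subunit, had a log2 fold change of -0.00 (edgeR adjusted p 0.996).

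Nuclear cofactors leaned the other way, with 11 of 13 IDs negative and a median of -0.35 (-0.46 to -0.22 with any 1 sample left out). Crebbp, a histone acetyltransferase recruited by many factors besides Notch, was at 780, 759 and 653 CPM in females 1, 2 and 3 and 485, 499 and 586 CPM in males 1, 2 and 3. Each male was below each female, with a log2 fold change of -0.48 (SE 0.13; edgeR unadjusted p 0.00215, adjusted p 0.338). It was called by DESeq2, by DESeq2 with 1 RUVr factor and by edgeR with 2 RUVr factors, settings that called 1.55%, 3.78% and 2.69% of the IDs they adjusted. Its relative Ep300 (-0.35, SE 0.13; edgeR adjusted p 0.379) and the Mastermind coactivator Maml2 (-0.57, SE 0.21; edgeR adjusted p 0.367) were also lower in each male, whereas Snw1, a splicing factor that binds Rbpj complexes, was higher in each male (0.29, SE 0.13; edgeR adjusted p 0.424). These transcripts were long, with a median length of 5550 nt, and with the length trend taken out the median of the list was -0.16. Crebbp then had -0.31, Ep300 -0.14, Maml2 -0.46 and Snw1 0.25.

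Of 7 further target genes, Hes2, Hes3, Hes6 and Hes7 had no ID past the count filter, which as for Rbpj is not a level of the gene, and the median over the 3 that did was 0.08 (-0.05 to 0.22 with any 1 sample left out). Nrarp, a feedback inhibitor that Notch induces, was at 76.2, 77.1 and 104 CPM in females 1, 2 and 3 and 127, 109 and 99.2 CPM in males 1, 2 and 3. As for Hey1, male 3 lay just under female 3 (log2 fold change 0.38, SE 0.16; edgeR unadjusted p 0.0302, adjusted p 0.395). The proneural factors, which Hes proteins repress, had a median of -0.04 over 5 IDs (-0.20 to 0.08 with any 1 sample left out), and the sexes overlapped for each of them.

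**Figure D4:**
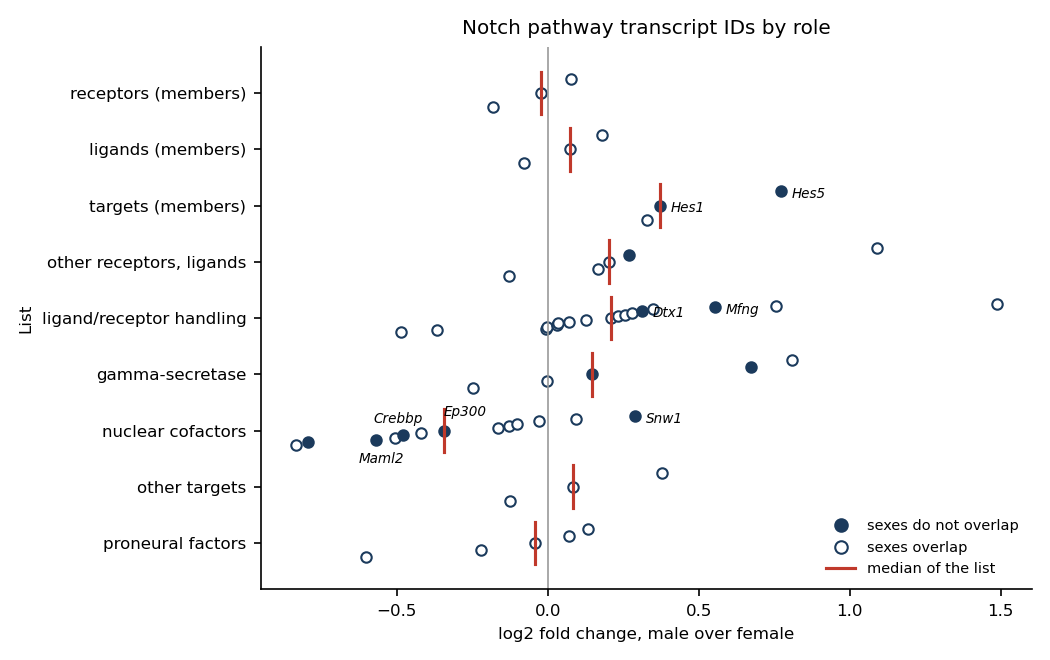
Log2 fold change, male over female (x axis), of the tested Notch pathway IDs by list (y axis), with 1 point per ID, filled where the sexes do not overlap, and a red bar at the median of the list. The 3 member targets lie to the right of 0 (median 0.37) and most nuclear cofactors to the left (median -0.35); labels are given to IDs with an unadjusted p under 0.05 and no overlap, and the low-count Rbpj is left out.

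Markers of the cells that express Notch genes were listed beside these values. Of 10 neural progenitor genes 8 were tested, and their summed level was 4990 to 5340 CPM in females and 4770 to 5300 CPM in males, a sum dominated by Vim, Mki67 and Top2a, which cells other than radial glia also express. Vim, an intermediate filament, was at 1580 to 1830 CPM with overlap, and 6 of the 8 tested IDs were positive with a median of 0.08. Within that list Sox2 was at 73.1, 79.1 and 101 CPM in females 1, 2 and 3 and 109, 122 and 101 CPM in males 1, 2 and 3 (log2 fold change 0.39, edgeR unadjusted p 0.0209, adjusted p 0.378). It was higher in each male, although male 3 and female 3 round to the same value. Mki67, a protein of dividing cells with a transcript of 10075 nt, was lower in each male (-0.42, edgeR adjusted p 0.371), but by less with the length trend taken out (-0.20) or without male 1 (-0.27). Pax6 and Prom1 were not among the IDs used here. Neuron markers summed to 3090 to 3550 CPM in females and 3310 to 4170 CPM in males, and intermediate progenitor markers to 125 to 149 and 141 to 178 CPM. Of 11 tested neuron IDs 6 were positive and 5 negative, with a median of 0.04. Tubb3 had 0.39 with overlap (edgeR adjusted p 0.356), while Gad2, an enzyme of inhibitory neurons, was lower in each male (-0.29, edgeR adjusted p 0.43; -0.17 with the length trend taken out). Gad1, the related enzyme, had 0.14 with overlap at its more abundant ID and -0.33 at the other. Dcx was higher in each male at low counts (0.55, SE 0.35, edgeR adjusted p 0.55).

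Other tissues that could be in the dissection were read in the same way. Cartilage markers summed to 1370 to 1950 CPM in females and 924 to 1670 CPM in males, with 9 of 10 tested IDs lower in males and a median of -0.50 (-0.34 without male 1 and -0.85 without male 3). The most abundant, Col11a1, was at 977, 706 and 901 CPM in females 1, 2 and 3 and 473, 466 and 888 CPM in males 1, 2 and 3, so males 1 and 2, where Hes5, Hes1 and Hey1 were highest, were low and male 3 was at the female level. Sox9, a factor of cartilage that radial glia also express, was at 154, 137 and 113 CPM in females 1, 2 and 3 and 90.0, 61.2 and 82.8 CPM in males 1, 2 and 3 (-0.78, edgeR adjusted p 0.338). The matrix linker Hapln1 was lower in each male as well (-1.09, edgeR adjusted p 0.338). The summed level of choroid plexus markers was 590 to 701 CPM in females and 726 to 891 CPM in males, a sum that Ttr dominates (0.38, edgeR adjusted p 0.351). Of the 5 tested choroid plexus IDs 3 were positive, the median was 0.10 (-0.02 to 0.21 with any 1 sample left out), and only Ttr did not overlap. Endothelial and mural markers, which bear on Notch3, summed to 1320 to 1360 and 1220 to 1330 CPM. Of the 8 tested IDs of that list 4 were positive and 4 negative. The endothelial genes Cdh5, Flt1 and Kdr, 3 of the 8, were lower in each male, as were 8.35% of all tested IDs. Their log2 fold changes were -0.26, -0.22 and -0.17, with edgeR unadjusted p-values above 0.05. With the length trend taken out they were -0.22, -0.07 and -0.05. Cldn5 had 0.43 with overlap (edgeR unadjusted p 0.0235), and 0.31 with that trend taken out. Meningeal markers gave 19000 to 23400 CPM in females and 17600 to 25800 CPM in males, and erythroid markers 752 to 1030 and 624 to 1190 CPM. The most abundant marker of the remaining lists, Btg2, Acta2, Col3a1 and Hbb-bt, overlapped between the sexes, with log2 fold changes from 0.06 to 0.22. Col3a1 and Hbb-bt went against most of their lists. Of the tested meningeal IDs 6 of 8 were negative, with a median of -0.07 (-0.13 to 0.07 with any 1 sample left out). For erythroid IDs 3 of 4 were negative, with a median of -0.26 (-0.47 to 0.05). Among defining markers, Eomes, Acan, Otx2, Snap25 and Alas2 were below the count filter. The part of these tissues in the values of the Notch genes was not tested.

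Hes5 was paired by the study with miR-219a-5p, a brain microRNA whose level was not analysed here. The study drew its pairs from interactions with experimental validation. It stated that the 3′ UTR of each target was highly complementary to the seed of its microRNA, and showed this pair as the example. The mature sequence of miR-219a-5p is shown with the seed, bases 2 to 8, in capitals (RefSeq).
miR-219a-5p: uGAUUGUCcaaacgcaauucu
The 7-letter match to that seed, GACAATC, was absent from the annotated 3′ UTR of Hes5 (696 nt, GENCODE on NCBIM37) and present in 848 of 19915 such UTRs (4.26%). The study did not state that the match was exact over these letters, and their absence does not speak to binding by other pairing.

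**Figure D5:**
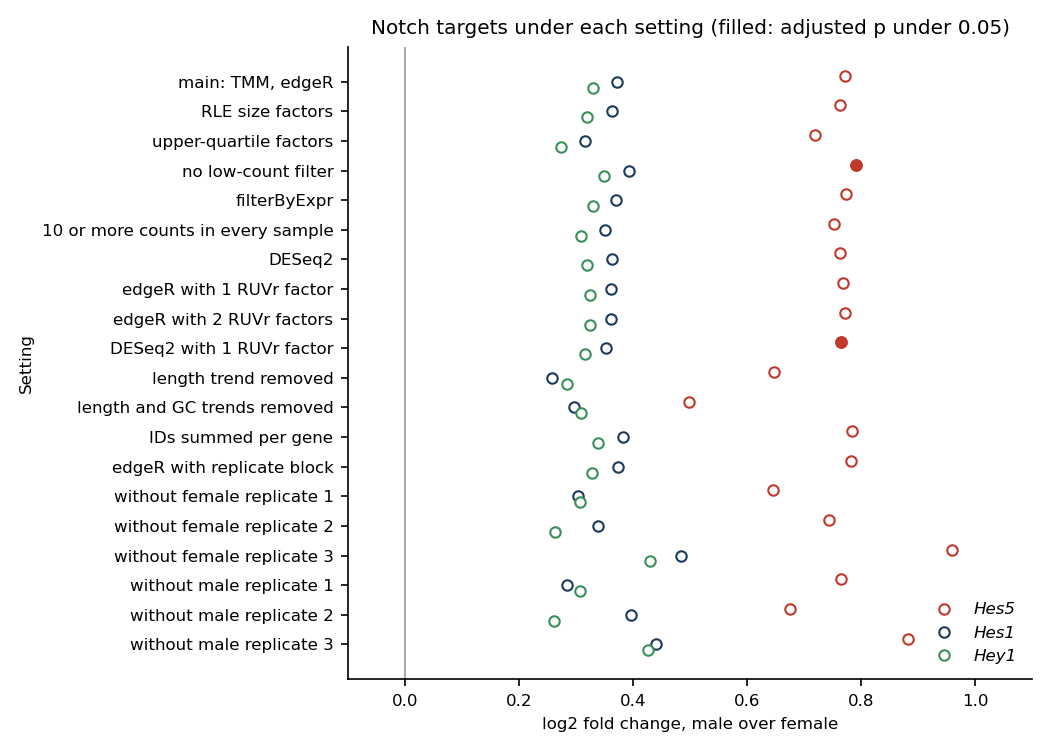
Log2 fold change, male over female (x axis), of Hes5, Hes1 and Hey1 under each setting (y axis), with filled symbols where the adjusted p was under 0.05. Hes5 runs from 0.50 to 0.96, Hes1 from 0.26 to 0.48 and Hey1 from 0.26 to 0.43, all above 0; the fits of DESeq2 with a sample left out are not drawn.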

How the data were processed

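Counts per RefSeq transcript ID were used as deposited by the authors, 1 table for each of 6 samples, not normalised. Per the labels and the study's methods, stranded total RNA libraries were trimmed (Trimmomatic 0.32), aligned to mm9 (TopHat2 2.1.1), assembled (Cufflinks 2.2.1) and counted with featureCounts 1.5.1. The treatment of strand, of shared reads and of reads with several hits is not stated, so counts of IDs that overlap a gene on the other strand (Notch1, Notch3, Dll1 and Hes5) or have several transcript models are uncertain.

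Symbols came from a RefSeq table (23359 of 23485 IDs, 99.5%), and length, GC content and positions from GENCODE on NCBIM37 (91.6% of IDs and 95.3% of those tested). IDs reaching 10 counts in any sample were tested with edgeR 4.0.16 in R 4.3.3 (quasi-likelihood F test, TMM factors of 0.94 to 1.03, design of sex, Benjamini-Hochberg adjustment over 13374 IDs, called at an adjusted p under 0.05). The SE was calculated back from F and the fold change. The biological coefficient of variation was 0.192. Samples of 1 sex differed by more than counting noise (chi-square per degree of freedom 9.03 to 44.9), so none was a copy. Limits set by a count of 0 cover counting error only. Labels give no batch, so no comparison within batches was made. DESeq2 and RUVr, which the study used with a number of factors that is not stated, were run as alternatives with 1 or 2 factors, because RUVr takes its factors from the residuals that the test uses. The other alternatives were further size factors and filters, offsets for length and GC, IDs summed per gene, a replicate block and leaving out each sample. DESeq2 was 1.42.0 and limma 3.58.1, with Python 3.11.15, pandas 2.3.3 and matplotlib 3.10.9. The scripts were tested on simulated counts.

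The members, the other lists and the settings were chosen with earlier results of these data known. Named outside the members were IDs of the lists with an unadjusted p under 0.05 and no overlap, the most abundant ID of each list, and the 5 IDs most like Hes5. Cdh5, Flt1, Kdr, Cldn5, Top2a, Gad1, Dcx, Poglut1, Fbxw7, Itch, Neurl1a and Mib2 were named after their values were seen. One result that this rule would name is not reported here. Snap25, Eomes, Acan, Otx2 and Alas2, and the list members with too few counts, are named for their absence from the test.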

Additional observations from a re-analysis of the deposited data

How the results depend on the processing

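Calls rest on 3 pools per sex at 4908565 to 10294443 counts, and Dll3 and Rbpj were limited by their counts. The number of members called was 0, and 0 without any 1 sample in edgeR. It was 1 (Hes5) without a low-count filter (log2 fold change 0.79), with DESeq2 and 1 RUVr factor (0.77) and with DESeq2 without female 3 (0.94, an alternative chosen after seeing the data). The adjusted p of Hes5 ran from 0.0317 to 0.95 over the alternatives that gave one, which DESeq2 did not with all samples or without female 2, male 1, male 2 or male 3, and its log2 fold change without 1 sample from 0.65 to 0.96 in edgeR. Members at an unadjusted p under 0.05 numbered 3, but 2 (without Hey1) with RLE or upper-quartile factors, 10 or more counts in every sample, DESeq2 with or without 1 RUVr factor and the replicate block, 1 (Hes5) with the length trend removed or length and GC trends removed, and 1 to 3 without 1 sample (1 without female 1, female 2 or male 1). Other pathway IDs called numbered 0, and 1 (Crebbp) under DESeq2 alone or with 1 RUVr factor and under edgeR with 2 such factors; the cause was not tested. Notch1 changed sign with the length trend removed (0.20), with length and GC trends removed (0.14), without a low-count filter (0.00, where the median of all IDs moved to -0.11) and without 1 sample (-0.121 to 0.051). Notch2 had 0.059 and 0.036 and Jag1 0.038 and 0.056 with the 2 trend removals, and Dll3 -0.006 with length and GC removed. Without 1 sample Jag1 ran from -0.13 to 0.024, Notch3 from -0.10 to 0.19 and Dll1 from -0.003 to 0.151. Hes1 and Hey1 kept their direction in all 19 alternatives.

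The sexes share replicate numbers, but same-numbered samples did not deviate together (correlations of -0.287, -0.0643 and -0.203), so the numbers were not taken as pairs. With a replicate block Hes5 had 0.78 (adjusted p 0.467), and 0 members and 4 of all IDs were called, as without it.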
